A study of Homo sapiens with 4 samples.

Results

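Cholesterol and fatty acid synthesis genes were examined by RNA-seq in cells that the labels call HepG2, an established line from a human liver cancer. The list held 40 genes, chosen by their known roles but with earlier results of these data known. It had 5 regulators of the pathway, 17 enzymes of sterol synthesis, 4 genes of sterol transport and 14 genes of fatty acid synthesis. Of these, 39 were matched to an identifier among the 57768 gene entries, and 37 had a mean FPKM (fragments normalised to transcript length and library size) of at least 1 and were tested among 12491 genes. ACACA was not analysed here, and ABCA1 and ACSL1 lay under the minimum. The samples were 2 wild-type (WT) libraries and 2 libraries named C/EBPβ enh-/-, whose cells had lost an enhancer of the C/EBPβ gene on both alleles by CRISPR/Cas9. All 4 came from cells grown in medium with fetal bovine serum and were run in lane 3 of 1 flow cell. Whether the libraries of a genotype came from separate cultures, and whether the deleted line was a single clone, is not given in the sources used here, so the p-values measure the spread between these libraries, which may be technical.

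The enzymes of this list are switched on together by the sterol regulatory element-binding proteins (SREBPs), which are held in the endoplasmic reticulum membrane until SCAP carries them to the Golgi for cleavage. INSIG proteins retain SCAP when sterols are plentiful. SREBP-2 is best known for sterol genes and SREBP-1c for fatty acid genes, and the liver is a main site of both pathways. C/EBPβ is a leucine zipper transcription factor of liver and fat cells.

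Values are given below as FPKM, library 1 before library 2, and genotypes are called separated where both libraries of 1 lie on the same side of both of the other. CEBPB itself, the gene on which the deleted enhancer acts, was at 30.6 (library 1) and 19.2 (library 2) in WT and at 12.4 and 11.8 in C/EBPβ enh-/- cells. The genotypes did not overlap, and limma gave a log2 fold change of −0.94 (standard error 0.27) at a Benjamini-Hochberg adjusted p of 0.125. The libraries did not carry the expression profile of liver cells. Of 20 hepatocyte markers, 18 stayed under an FPKM of 1 in every library, ALB, AFP and HNF4A among them, and the whole list summed to between 3.17 and 3.80. VTN was at 0.864 and 0.7996 in WT and 1.44 and 1.11 in C/EBPβ enh-/-, and FOXA1 at 2.09 and 1.74 against 1.34 and 1.23. Of 10 mesenchymal markers, 6 reached an FPKM of 1 in every library, and the whole list summed to 302 and 377 in WT and 261 and 232 in C/EBPβ enh-/-. VIM made up most of that sum. Of the 6 tested, VIM, PDGFRB and TWIST1 (3) lay below both WT values, against 37.5% of all genes, and COL3A1 (1) above both, against 15.1%, genes named after their values were seen. Of 8 haematopoietic markers, 7 were below an FPKM of 1 in every library, and the whole list summed to 3.46 and 4.26 in WT and 8.61 and 2.35 in C/EBPβ enh-/-. In bulk RNA, fewer cells of a kind and less RNA per cell cannot be told apart, and the part of cell identity in the results was not tested.

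The libraries differed in ways that touch the values below. C/EBPβ enh-/- library 1 was the shallowest, at 0.555 times the depth of WT library 1 as read from the spacing of low values, against 1.12 in WT library 2 and 1.22 in C/EBPβ enh-/- library 2. Its 5 highest genes held 35.1% of all FPKM, against 18.8% to 27.4% in the other libraries. The FPKM of 1 entry, ENSG00000259001, was 93040.9 and 52767.6 in C/EBPβ enh-/- libraries 1 and 2 and 0 in WT, and FPKM is relative to the rest of a library. Over all genes tested, the median log2 fold change was −0.14, so a value is read here against that shift. When the library totals were equalised without this entry, a scaling chosen after seeing the data, the median of all genes became 0.02, and it was 0.03 with values centred on each library's median.

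Promoter sequences of 5 members are shown, those with the largest separated differences of their branch and INSIG1, the sensor whose WT libraries differed most on log2(FPKM + 1) among the tested members. TM7SF2 and MSMO1 had the largest decrease and increase of the sterol branch among genes whose genotypes did not overlap, FADS2 had the only increase without overlap among the tested genes of the fatty acid branch, and ACLY, chosen after its values were seen, stands in for FASN, which has no entry in the promoter table. Each run is the 250 bases before the transcription start, 5′ to 3′ on the gene's strand, from RefSeq on GRCh38.p14. Capitals mark the CCAAT box, a binding site of NF-Y, in either orientation (CCAAT or ATTGG).
INSIG1, chr7:155297628-155297877, plus strand: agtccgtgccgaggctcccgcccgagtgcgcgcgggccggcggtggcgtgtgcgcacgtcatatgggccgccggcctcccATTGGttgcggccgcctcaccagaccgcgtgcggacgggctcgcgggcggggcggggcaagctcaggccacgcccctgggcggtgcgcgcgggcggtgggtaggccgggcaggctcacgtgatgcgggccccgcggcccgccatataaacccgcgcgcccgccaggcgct
MSMO1, chr4:165327419-165327668, plus strand: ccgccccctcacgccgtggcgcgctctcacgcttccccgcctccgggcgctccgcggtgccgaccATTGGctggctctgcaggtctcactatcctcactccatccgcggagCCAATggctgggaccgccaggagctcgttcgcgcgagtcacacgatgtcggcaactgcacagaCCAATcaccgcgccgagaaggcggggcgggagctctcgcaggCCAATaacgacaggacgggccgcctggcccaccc
TM7SF2, chr11:65111622-65111871, plus strand: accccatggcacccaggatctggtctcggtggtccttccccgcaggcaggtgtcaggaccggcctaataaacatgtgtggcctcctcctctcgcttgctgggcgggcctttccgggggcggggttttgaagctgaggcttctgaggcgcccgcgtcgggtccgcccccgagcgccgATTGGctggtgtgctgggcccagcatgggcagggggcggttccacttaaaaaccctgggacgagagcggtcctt
ACLY, chr17:41919023-41919272, minus strand: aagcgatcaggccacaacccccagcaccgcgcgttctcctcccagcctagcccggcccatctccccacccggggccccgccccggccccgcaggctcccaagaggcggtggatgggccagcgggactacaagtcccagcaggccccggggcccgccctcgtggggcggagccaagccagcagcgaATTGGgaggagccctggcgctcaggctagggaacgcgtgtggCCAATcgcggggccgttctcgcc
FADS2, chr11:61815953-61816202, plus strand: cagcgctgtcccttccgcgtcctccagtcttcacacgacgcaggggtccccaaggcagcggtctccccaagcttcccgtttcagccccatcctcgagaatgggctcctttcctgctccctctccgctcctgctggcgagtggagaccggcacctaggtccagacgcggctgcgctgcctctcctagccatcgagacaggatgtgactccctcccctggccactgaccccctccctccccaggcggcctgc
The MSMO1 promoter held 4 CCAAT boxes, the ACLY promoter 2, those of INSIG1 and TM7SF2 1 each, and that of FADS2 held none, and for ACLY and FADS2 the first of 2 entries is shown.

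Promoter entries existed for 35 of the 39 matched members (none for ACAT2, FDFT1, SQLE or FASN). On both strands of the same 250 bases, CCAAT occurred in 24 of the 35, against 32% of all 35116 promoters. It was found in 12 of 14 sterol synthesis genes, 8 of 12 fatty acid genes, 2 of 5 regulators and 2 of 4 transport genes. An SREBP site written as TCACNCCAC occurred in 2 of the 35, SREBF2 and ACSL1, against 0.883% of all promoters. A C/EBP site written as TTGCNNAA occurred in SCAP and ACSL1, against 9.05% of all promoters. A gene with several entries was counted if any of them held the letters, whereas the shares of all promoters count each entry by itself. The shares are thus not counted alike, and ACSL1, which held both of the rarer sites, has 5 entries. No matches overlapped in the printed runs, and a match is a description of sequence and not of binding.

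None of the 37 tested members passed the threshold of 0.05 for the adjusted p from limma. Their adjusted p ranged from 0.107 to 0.993. Of all 12491 genes, 151 (1.21%) were called lower in C/EBPβ enh-/- cells and 31 (0.248%) were called higher, and 43 and 26 when totals were equalised without ENSG00000259001. An unadjusted p under 0.05 was found for 7 members with a lower value in C/EBPβ enh-/- cells and 1 with a higher value, against 16.9% and 3.86% of all genes. In 14 members (37.8%) the C/EBPβ enh-/- libraries were both under the WT libraries, a share near the 37.5% of all genes. In 4 (10.8%) they were both over them, against 15.1% of all genes. The shares of the whole list thus lay near or under those of all genes, and the branches are described apart below.

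**Figure D1:**
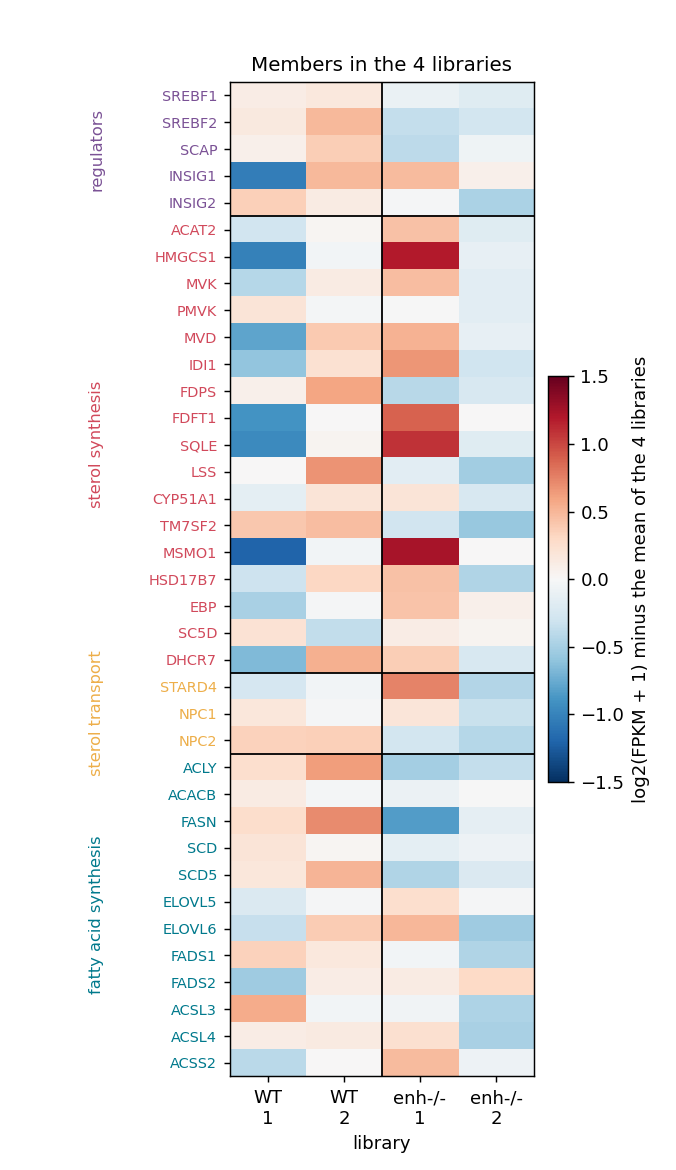
Heat map of the 37 tested members (rows, grouped by role) in the 4 libraries (columns), coloured by log2(FPKM + 1) minus the member's mean over the 4 libraries. Many sterol synthesis genes are blue in WT library 1 and red in C/EBPβ enh-/- library 1, while ACLY, FASN and SCD5 are red in both WT libraries and blue in both C/EBPβ enh-/- libraries.

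Among the 5 regulators, 4 had lower values in both C/EBPβ enh-/- libraries than in both WT libraries, against 37.5% of all genes, and INSIG1 differed widely between the WT libraries. That count is for the values as deposited. With totals equalised without ENSG00000259001, SREBF1 and SCAP overlapped, and the share of all genes was 24.2%. With centring SCAP overlapped, and the share was 25.2%. SREBF2, which encodes SREBP-2 (ENSG00000198911.7, GRCh37 chromosome 22 from 42229109 to 42303310), had an FPKM of 22.6 and 28.9 in WT and of 15.6 and 16.7 in C/EBPβ enh-/- libraries. The means were 25.8 ± 4.43 and 16.2 ± 0.776 (SD, n = 2 each), a ratio of 0.627. The log2 fold change was −0.63 (95% interval −1.17 to −0.09), the adjusted p from limma was 0.182, and the median of the 296 genes tested on chromosome 22 was −0.41. SREBF1, which encodes SREBP-1, was at 30.6 and 31.7 in WT and at 26.3 and 24.8 in C/EBPβ enh-/- libraries. The groups did not overlap but lay close, with a log2 fold change of −0.27 (95% interval −0.77 to 0.22) beside a median of −0.47 on chromosome 17, where it lies. It was −0.089 with totals equalised without ENSG00000259001 and −0.10 with centring. SCAP, the escort of the SREBPs, was at 16.2 and 20.1 against 11.4 and 14.6, without overlap (log2 fold change −0.45, standard error 0.24), and was −0.27 with totals equalised without ENSG00000259001 and −0.29 without C/EBPβ enh-/- library 1.

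The INSIG genes had unlike values across the libraries. INSIG1, itself a well-known SREBP target, was at 10.5 and 32.2 in WT libraries 1 and 2, and at 31.7 and 24.0 in C/EBPβ enh-/- libraries. WT library 2 had 3.07 times the FPKM of WT library 1, so both C/EBPβ enh-/- values fell between the WT values. Its log2 fold change of 0.55 had a 95% interval of −0.58 to 1.68, and it was −0.22 when WT library 1 was left out. INSIG2 was low throughout, at 4.29 and 3.48 in WT and 3.07 and 1.97 in C/EBPβ enh-/- libraries, without overlap (log2 fold change −0.49, standard error 0.27). The median of chromosome 2, where it lies, was −0.44, and relative to that INSIG2 was at −0.049. Its log2 fold change went from −0.71 without C/EBPβ enh-/- library 1 to −0.26 without C/EBPβ enh-/- library 2. Over the 5 regulators, the median log2 fold change was −0.45, next to −0.14 for all genes, and it stayed between −0.46 and −0.26 under every alternative scaling and with any library left out.

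The separated genes of the sterol synthesis branch had no common direction. Below both WT values lay 3 of its 17 genes (17.6%, against 37.5% of all genes) and above both lay 3 (17.6%, against 15.1%), and 11 overlapped. The median log2 fold change of the 17 members of the branch was 0.26, with 6 values under 0 and 11 above, next to −0.14 for all genes. With centring on the median, and also with totals equalised without ENSG00000259001, 3 values were under 0 and 14 above. Of the 17, 3 had an unadjusted p under 0.05. TM7SF2 and FDPS (2 of 17, against 16.9% of all genes) were lower and MSMO1 (1 of 17, against 3.86%) was higher in C/EBPβ enh-/- cells.

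The genes above both WT values were MSMO1, FDFT1 and EBP. MSMO1, which removes methyl groups at carbon 4 of the sterol ring (ENSG00000052802.8, GRCh37 chromosome 4 from 166248819 to 166264316), was at 4.42 and 11.1 in WT and 28.5 and 11.6 in C/EBPβ enh-/- libraries. WT library 1 was far below and C/EBPβ enh-/- library 1 far above the other libraries, which were nearly level. The means were 7.78 ± 4.74 and 20.03 ± 11.9 (SD, n = 2 each), and the log2 fold change was 1.25 (95% interval 0.05 to 2.44, adjusted p = 0.224 from limma). It was 0.67 without WT library 1 and 0.63 without C/EBPβ enh-/- library 1, and 1.83 and 1.86 without WT library 2 and C/EBPβ enh-/- library 2. FDFT1, squalene synthase, was at 26.5 and 50.2 in WT and 92.9 and 50.2 in C/EBPβ enh-/- libraries, where C/EBPβ enh-/- library 2 exceeded WT library 2 by a factor of 1.001 and the separation rests on that margin. Its log2 fold change was 0.89 (95% interval −0.05 to 1.83), from 0.44 to 1.34 with 1 library left out, and the median of chromosome 8, where it lies, was 0.21. EBP, the sterol isomerase, was at 69.7 and 96.9 in WT and 132 and 103 in C/EBPβ enh-/- libraries (log2 fold change 0.50, standard error 0.26).

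The genes below both WT values were TM7SF2, LSS and FDPS. TM7SF2, a sterol C14 reductase (ENSG00000149809.10, GRCh37 chromosome 11 from 64879317 to 64883856), was at 9.58 and 10.04 in WT and 5.56 and 4.403 in C/EBPβ enh-/- libraries. Both genotypes were tight and well apart, with means of 9.81 ± 0.323 and 4.98 ± 0.816 (SD, n = 2 each) and a ratio of 0.508. Its log2 fold change of −0.86 (95% interval −1.39 to −0.33) had the lowest adjusted p of all members, 0.107 by limma, and chromosome 11 had a median of −0.02. FDPS, farnesyl diphosphate synthase, was at 116 and 166 in WT and 81.9 and 93.2 in C/EBPβ enh-/- libraries (log2 fold change −0.66, 95% interval −1.25 to −0.07, adjusted p = 0.201 from limma). LSS, lanosterol synthase, was at 14.3 and 23.2 against 12.6 and 9.58 (log2 fold change −0.68, standard error 0.29), beside a median of −0.48 on chromosome 21. These 3 enzymes act at separate steps, FDPS before squalene, LSS at ring closure and TM7SF2 after it. FDPS has near-identical pseudogene copies, as has HSD17B7, and how shared reads were assigned is not given in the sources used here.

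Among the overlapping genes, several had, like MSMO1, their lowest value in WT library 1 and their highest in C/EBPβ enh-/- library 1. HMGCS1, the cytosolic HMG-CoA synthase, was at 8.70 and 18.1 in WT and 43.7 and 17.04 in C/EBPβ enh-/- libraries. SQLE, squalene epoxidase, was at 9.16 and 19.2 against 40.7 and 16.4. In both genes C/EBPβ enh-/- library 1 stood above all others, while C/EBPβ enh-/- library 2 lay just under WT library 2. The ratio of means was 2.27 for HMGCS1 and 2.01 for SQLE, yet C/EBPβ enh-/- library 1 also exceeded C/EBPβ enh-/- library 2 by 2.56 and 2.48 times, and WT library 2 exceeded WT library 1 by 2.08 and 2.10 times. The log2 fold changes were 1.06 (95% interval −0.10 to 2.22) and 0.91 (95% interval −0.23 to 2.05). With 1 library left out they ranged from 0.41 to 1.71 and from 0.28 to 1.54, both lowest without C/EBPβ enh-/- library 1 and highest without C/EBPβ enh-/- library 2. IDI1, the isopentenyl diphosphate isomerase, was at 22.1 and 40.04 in WT and 54.4 and 27.3 in C/EBPβ enh-/- libraries. MVD, mevalonate diphosphate decarboxylase, was at 10.8 and 25.8 against 28.3 and 17.8. For both, the C/EBPβ enh-/- libraries lay on either side of WT library 2 (log2 fold changes 0.36 and 0.40, standard errors 0.40 and 0.42).

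**Figure D2:**
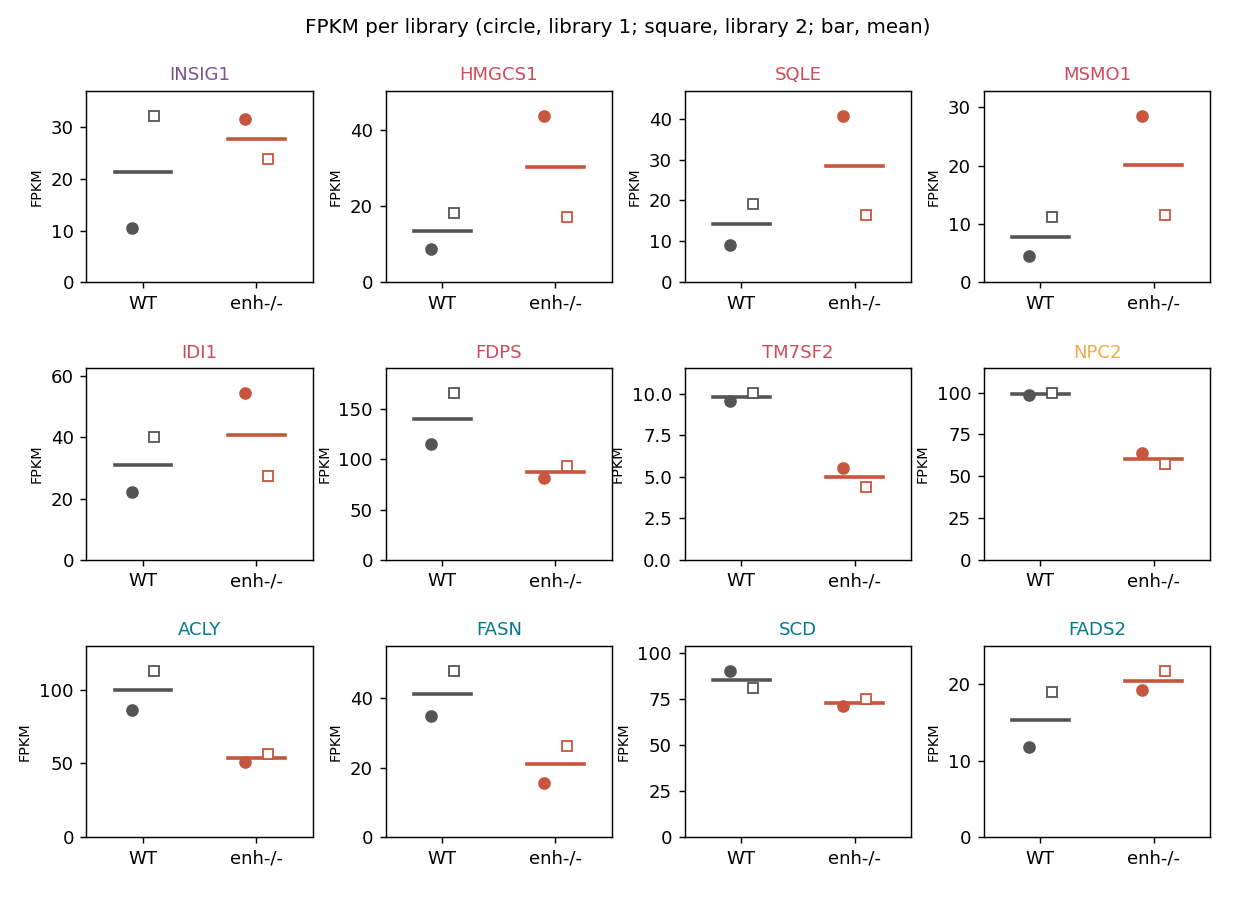
FPKM (vertical axes, from 0) of 12 members in WT and C/EBPβ enh-/- libraries; circles are library 1, squares library 2 and bars the mean of 2 libraries. For HMGCS1, SQLE and MSMO1 the C/EBPβ enh-/- circle stands far above the other points, whereas for TM7SF2, NPC2 and ACLY the points of each genotype lie together and the genotypes are apart.

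The remaining sterol enzymes had small differences within the spread of the libraries. DHCR7, which makes cholesterol from its last precursor, was at 11.1 and 26.5 in WT and 23.7 and 15.1 in C/EBPβ enh-/- libraries. ACAT2, which makes the first intermediate of the pathway, was at 17.03 and 21.6 against 28.9 and 18.5. MVK, mevalonate kinase, was at 5.89 and 9.14 against 11.8 and 7.29, and its partner PMVK at 6.09 and 5.06 against 5.21 and 4.57. In all 4 genes the genotypes overlapped. CYP51A1, the lanosterol demethylase, was at 40.1 and 50.8 in WT and 50.9 and 37.3 in C/EBPβ enh-/- libraries. HSD17B7, a sterol ketoreductase, was at 6.84 and 11.1 against 12.2 and 6.12. SC5D, the desaturase that precedes DHCR7, was at 44.2 and 29.1 against 41.1 and 39.2, the only member of the branch besides PMVK with a higher value in WT library 1 than in WT library 2. The log2 fold changes of these 7 genes ranged from −0.16 for PMVK to 0.30 for MVK.

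In the sterol branch, libraries of the same genotype differed mostly in the same direction. WT library 2 exceeded WT library 1 in 15 of 17 genes, against 50.8% of all genes tested. The signed median was 0.62 on the log2 scale, against 0.01 over all genes. C/EBPβ enh-/- library 1 exceeded C/EBPβ enh-/- library 2 in 16 of 17, against 58.9% of all genes. Here too the signed median was 0.62, against 0.09 over all genes. Opposite signs offset each other in such medians, so those of all genes do not give the size of their gaps. Of the 17, 9 (52.9%) were lowest in WT library 1 and highest in C/EBPβ enh-/- library 1, an order noticed after the values were seen that 11.1% of all genes had: ACAT2, HMGCS1, MVK, MVD, IDI1, FDFT1, SQLE, MSMO1 and EBP. Library by library, the median difference from WT was 0.90 for C/EBPβ enh-/- library 1 against WT library 1, 0.34 for C/EBPβ enh-/- library 1 against WT library 2, 0.27 for C/EBPβ enh-/- library 2 against WT library 1 and −0.29 for C/EBPβ enh-/- library 2 against WT library 2, comparisons that share libraries. The median of the branch was −0.045 without WT library 1 and −0.051 without C/EBPβ enh-/- library 1, and 0.58 and 0.57 without WT library 2 and C/EBPβ enh-/- library 2. Its sign thus depended on WT library 1 and on C/EBPβ enh-/- library 1, the shallowest library, whose depth and composition were not tested as a part of the result. Under every alternative scaling of all 4 libraries the median was above 0, up to 0.44.

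**Figure D3:**
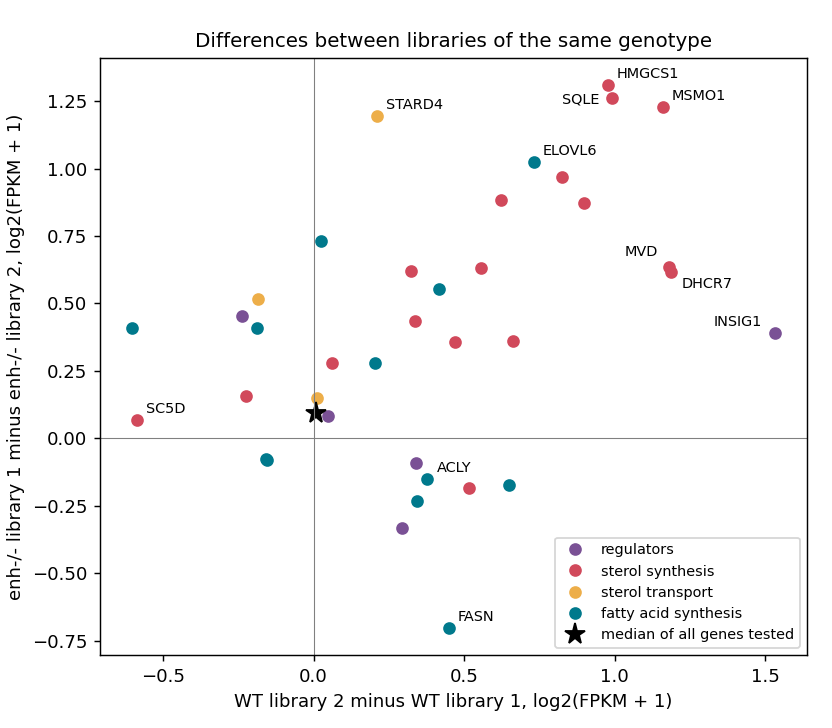
Each point is a tested member, placed by WT library 2 minus WT library 1 (horizontal) and C/EBPβ enh-/- library 1 minus C/EBPβ enh-/- library 2 (vertical), both in log2(FPKM + 1); colours give the role and the star the median of all genes tested. Most sterol synthesis genes lie in the upper right, where both differences are above 0, with medians of 0.62 on each axis, while FASN and ACLY lie below the horizontal zero line.

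Of the 3 tested transport genes, only NPC2 had separated genotypes, below both WT values (33.3%, against 37.5% of all genes). It had the lowest adjusted p of the members after TM7SF2 and ACLY. NPC2, the soluble cholesterol carrier of the lysosome (ENSG00000119655.4, GRCh37 chromosome 14 from 74942895 to 74960880), was at 98.8 and 99.6 in WT and 63.8 and 57.4 in C/EBPβ enh-/- libraries. The WT libraries were almost equal and both C/EBPβ enh-/- values were far below them, with means of 99.2 ± 0.552 and 60.6 ± 4.52 (SD, n = 2 each). The log2 fold change was −0.70 (95% interval −1.19 to −0.21, adjusted p = 0.131 from limma), beside a median of −0.39 on chromosome 14. NPC1, its membrane partner, was at 14.2 and 12.4 against 14.4 and 9.76, and the groups overlapped. STARD4, a cytosolic sterol carrier, was at 11.7 and 13.7 in WT and 24.5 and 10.1 in C/EBPβ enh-/- libraries, 2.42 times higher in C/EBPβ enh-/- library 1 than in library 2. ABCA1, which exports cholesterol, was close to 0, at 0.0721 and 0.000281 in WT and 0.00404 and 0 in C/EBPβ enh-/- libraries.

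In the fatty acid branch most values were lower in C/EBPβ enh-/- cells, as they were over all genes. Of 12 tested genes, 9 had a log2 fold change under 0, against 7814 of the 12491 genes, and 6 lay below both WT values (50%, against 37.5% of all genes), namely ACLY, FASN, SCD, SCD5, FADS1 and ACSL3. With centring on the median, 7 were under 0 and 4 lay below both, where 25.2% of all genes did. The median log2 fold change was −0.23, next to −0.14 for all genes. It remained under 0 with any library left out, from −0.56 without C/EBPβ enh-/- library 1 to −0.20 without C/EBPβ enh-/- library 2, and under the alternative scalings, which brought it to as little as −0.050. An unadjusted p under 0.05 was found for 3 of the 12 genes, all lower in C/EBPβ enh-/- cells, against 16.9% of all genes.

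These 3 were the ATP-citrate lyase ACLY, the fatty acid synthase FASN and the desaturase SCD5. ACLY, which makes cytosolic acetyl-CoA for both pathways (ENSG00000131473.12, GRCh37 chromosome 17 from 40023170 to 40086795), was at 86.5 and 113 in WT and 50.7 and 56.4 in C/EBPβ enh-/- libraries. All C/EBPβ enh-/- values were well below all WT values, with means of 99.6 ± 18.5 and 53.6 ± 4.02 (SD, n = 2 each) and a ratio of 0.538. FASN, which builds palmitate (ENSG00000169710.6, GRCh37 chromosome 17 from 80036214 to 80056170), was at 34.8 and 47.9 in WT and 15.7 and 26.2 in C/EBPβ enh-/- libraries. The lowest value was in C/EBPβ enh-/- library 1 and the highest in WT library 2, and the ratio of means was 0.507. The log2 fold changes of ACLY and FASN were −0.87 (95% interval −1.42 to −0.32) and −0.97 (95% interval −1.70 to −0.25), with an adjusted p of 0.110 and 0.148 from limma. Both genes lie on chromosome 17, where the median of 721 tested genes was −0.47, and relative to it they were at −0.40 and −0.50. SCD5, a desaturase best known from brain, was at 4.62 and 6.13 against 2.66 and 3.29 (log2 fold change −0.68, standard error 0.25), while the median of chromosome 4 was 0.07.

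The enzymes that desaturate and elongate fatty acids did not share a direction. SCD, the main stearoyl-CoA desaturase, was at 90.4 and 80.9 in WT and 71.1 and 74.9 in C/EBPβ enh-/- libraries, separated but close (log2 fold change −0.23, 95% interval −0.72 to 0.27). The median of chromosome 10, where it lies, was −0.34, and relative to that SCD was at 0.11. The log2 fold change of SCD was −0.038 with totals equalised without ENSG00000259001 and −0.053 with centring, and −0.31 to −0.15 with 1 library left out. FADS1 was at 40.6 and 35.5 against 30.9 and 23.0, and FADS2 at 11.8 and 19.0 against 19.2 and 21.8. The first, the delta-5 desaturase, was thus lower in both C/EBPβ enh-/- libraries and the second, the delta-6 desaturase, higher in both, with log2 fold changes of −0.49 and 0.42 and standard errors of 0.24 and 0.28. The separation of FADS2 rests on a narrow margin, 19.19 in C/EBPβ enh-/- library 1 over 19.00 in WT library 2. FADS1 lies within the span of FADS2 on the other strand, and how shared reads were assigned is not given in the sources used here. The value of FADS2 was 0.0997 without WT library 1 and 0.75 without WT library 2. ELOVL5, the elongase of polyunsaturated chains, was at 39.5 and 45.6 in WT and 55.3 and 45.4 in C/EBPβ enh-/- libraries. ELOVL6, the elongase of palmitate, was at 4.402 and 7.97 against 8.66 and 3.74, with C/EBPβ enh-/- library 1 again the highest and 2.31 times C/EBPβ enh-/- library 2. For both elongases the genotypes overlapped.

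Of the enzymes that activate fatty acids and acetate, ACSL3 alone was separated among those tested. ACSL3, an acyl-CoA synthetase of lipid droplets, was at 75.8 and 49.6 in WT and 49.3 and 36.9 in C/EBPβ enh-/- libraries, separated by a narrow margin. Its log2 fold change was −0.51 (standard error 0.28), and −0.076 relative to the median of chromosome 2, which was −0.44. ACSL4, which prefers arachidonate, was at 20.1 and 20.5 against 22.2 and 12.98. ACSS2, which activates acetate, was at 4.52 and 6.37 against 9.21 and 5.95. ACACB, the carboxylase at the mitochondrial surface, was at 2.33 and 1.99 against 1.86 and 2.03. In these 3 genes the genotypes overlapped. ACSL1 was under the minimum and not tested, at 0.342 and 0.242 in WT and 0.689 and 0.361 in C/EBPβ enh-/- libraries, so that both of its C/EBPβ enh-/- values lay above both WT values at a very low level.

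**Figure D4:**
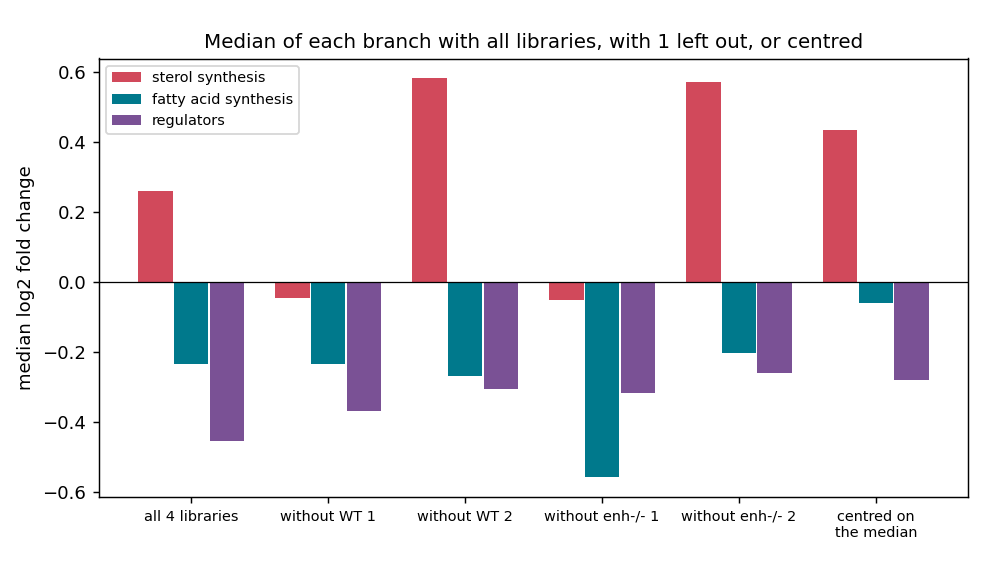
Median log2 fold change (C/EBPβ enh-/- minus WT, vertical axis) of the sterol synthesis, fatty acid synthesis and regulator members with all 4 libraries, with each library left out, and with values centred on each library's median. The sterol bars change from 0.26 to −0.045 and −0.051 without WT library 1 or C/EBPβ enh-/- library 1, while the fatty acid and regulator bars stay below 0 in every setting shown.

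Between libraries of a genotype, the fatty acid branch had smaller signed median differences than the 0.62 of the sterol branch, without a test of that contrast. WT library 2 minus WT library 1 had a median of 0.27 on the log2 scale, with 8 of 12 genes above 0. C/EBPβ enh-/- library 1 minus C/EBPβ enh-/- library 2 had a median of 0.10, with 6 of 12 above 0. Opposite signs offset each other in these medians, so they are not the typical gap of a gene between libraries. The median difference from WT was −0.28 for C/EBPβ enh-/- library 1 against WT library 1, −0.03 for C/EBPβ enh-/- library 1 against WT library 2, −0.33 for C/EBPβ enh-/- library 2 against WT library 1 and −0.51 for C/EBPβ enh-/- library 2 against WT library 2, again with shared libraries. The difference between the genotype means was larger than the difference within each genotype for 5 of the 12 fatty acid genes and 5 of the 17 sterol synthesis genes, and for 40.3% of all genes tested. The order lowest in WT library 1 and highest in C/EBPβ enh-/- library 1 was found in 2 of the 12 (16.7%, against 11.1% of all genes).

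**Figure D5:**
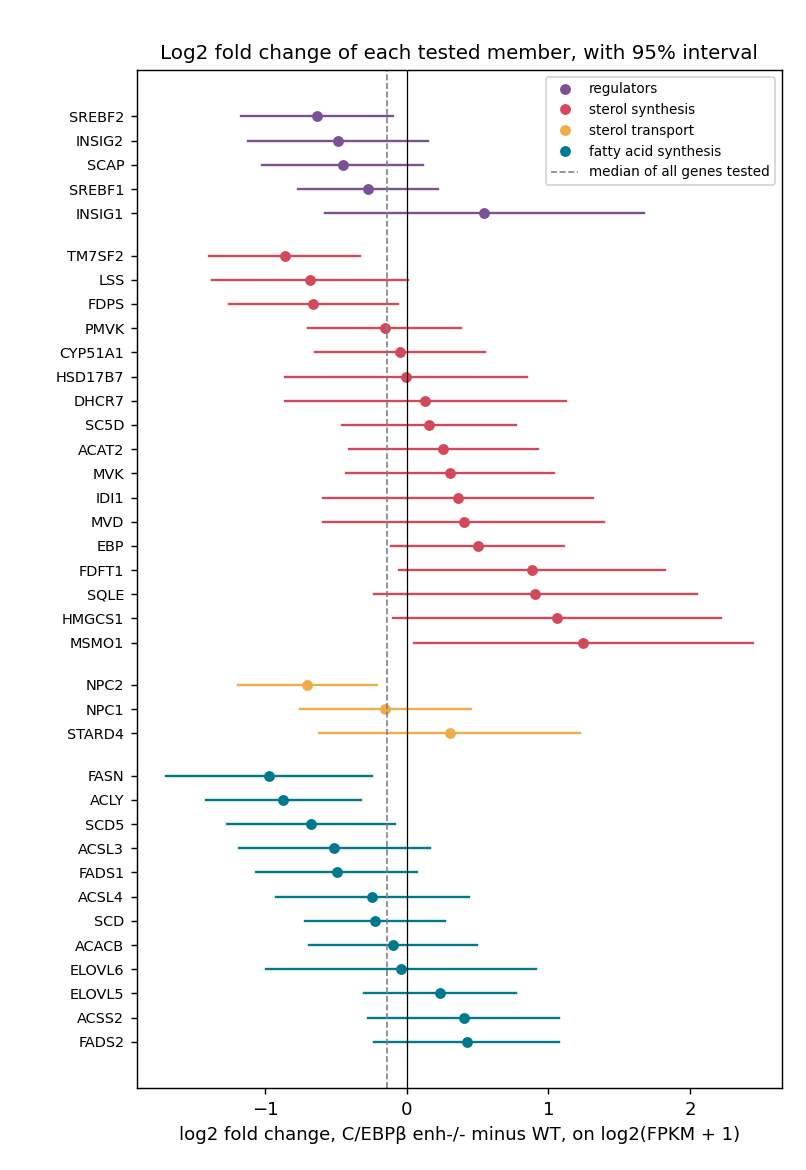
Log2 fold change (C/EBPβ enh-/- minus WT, on log2(FPKM + 1); points) with its 95% interval (lines) for the 37 tested members, ordered within each role; the dashed line is the median of all genes tested, −0.14. The intervals of 7 members lie wholly below 0 (SREBF2, TM7SF2, FDPS, NPC2, FASN, ACLY, SCD5) and that of MSMO1 wholly above it, and the longest intervals belong to sterol genes.

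Genes of the same pathways outside the list were examined as well, from lists drawn up with earlier results of these data known. Of 17 other sterol genes, all were tested and none was called (of all genes, 1.21% were called lower and 0.248% higher). Below both WT values lay 5 (29.4%, against 37.5% of all genes) and above both 3 (17.6%, against 15.1%), and the median log2 fold change was 0.03, against −0.14. Its sign and size depended on the setting, with 0.20 under centring, 0.21 with totals equalised without ENSG00000259001 and −0.10 without C/EBPβ enh-/- library 1. The 2 of 17 with an unadjusted p under 0.05 were lower in C/EBPβ enh-/- cells, as were 16.9% of all genes. LBR, a nuclear membrane protein with the same sterol reductase activity as TM7SF2, was at 16.5 and 19.8 in WT and 11.7 and 10.3 in C/EBPβ enh-/- libraries (log2 fold change −0.67, standard error 0.22). NR1H3, the sterol-sensing nuclear receptor LXRα, was at 9.67 and 7.97 against 4.12 and 5.76 (log2 fold change −0.73, standard error 0.25). MYLIP, a ubiquitin ligase that LXR induces, was at 2.59 and 1.80 against 6.25 and 2.74 (log2 fold change 0.71, standard error 0.36). The first pair was thus lower and MYLIP higher in both C/EBPβ enh-/- libraries.

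Of 26 other fatty acid genes, 16 were tested and none was called, beside the same 1.21% and 0.248% of all genes. Below both WT values lay 8 (50%, against 37.5% of all genes) and above both 2 (12.5%, against 15.1%), and the median log2 fold change was −0.28, against −0.14. That median was −0.10 with centring or with totals equalised without ENSG00000259001, and −0.17 without WT library 2. SLC25A1, the mitochondrial citrate exporter that feeds ACLY (ENSG00000100075.5, GRCh37 chromosome 22 from 19163094 to 19166252), had the lowest log2 fold change of both lists. It was at 100.3 and 101.7 in WT and 38.8 and 46.6 in C/EBPβ enh-/- libraries, with means of 101 ± 0.939 and 42.7 ± 5.50 (SD, n = 2 each) and a ratio of 0.423. The log2 fold change was −1.23 (95% interval −1.74 to −0.72), the adjusted p from limma of 0.0525 was just over the threshold, and relative to the median of chromosome 22 it was −0.82. ME1, the malic enzyme that supplies NADPH, was at 18.8 and 17.2 in WT and 7.48 and 9.98 in C/EBPβ enh-/- libraries (log2 fold change −0.98, adjusted p = 0.0900 from limma, −1.09 relative to the median of chromosome 6). AACS, which activates acetoacetate, was at 7.77 and 7.51 against 5.27 and 3.57 (log2 fold change −0.69, standard error 0.25).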

How the data were processed

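RNA-seq of 2 WT and 2 C/EBPβ enh-/- libraries was used, with genotypes as labelled. For each gene and library the authors deposited 1 FPKM value, normalised by transcript length and library size. The submitters' processing notes name TopHat2 2.0.13, Cufflinks, edgeR and hg19 without their roles, and the labels' extraction text describes sonicated nuclei and an antibody. Of 57815 entries, 57768 remained without pseudoautosomal copies on chromosome Y, and 55535 matched a symbol. Gene coordinates came from GENCODE release 44 lifted to GRCh37. Read counts were not used here, and the precision is limited by n = 2 per genotype.

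Genotypes were compared on log2(FPKM + 1), a scale that understates the change of low genes, for genes whose mean FPKM was 1 or more. The test was the two-sided moderated test of limma 3.58.1 (R 4.3.3; lmFit and then eBayes, trend on), without a replicate block, and p-values were adjusted by Benjamini-Hochberg over all genes tested, at a threshold of 0.05. The standard errors and 95% intervals come from the same fit. An exact permutation test of this design has a smallest p of 0.333. Relative depth was read from values under an FPKM of 0.3.

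The members and lists were chosen with earlier results of these data known. Named were all members, CEBPB, of the other pathway lists any called gene and the 3 with the largest separated log2 fold change, and hepatocyte markers ALB, AFP, HNF4A and those whose mean FPKM reached 1. Alternatives were eBayes with the trend off, a pseudocount of 0.1, a minimum mean FPKM of 5 or none, equal library totals, centring on the median, a replicate block and leaving out each library. After seeing the data, equal totals without ENSG00000259001 were added. ChIP-seq was not analysed here. Figures were made with Python 3.11.15 and matplotlib 3.10.9.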

Additional observations from a re-analysis of the deposited data

How the results depend on the processing

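No member was called under any alternative, with a lowest adjusted p from limma of 0.10 (pseudocount 0.1). Beside 151 genes called lower in C/EBPβ enh-/- cells and 31 called higher, equal totals gave 61 lower, equal totals without ENSG00000259001 (chosen after seeing the data) 43, centring 68 and the replicate block 93, which changed no member's call, and a mean FPKM of at least 5 gave 20 higher. For that block, no source ties same-numbered libraries to each other, and their deviations from the genotype means had a correlation of 0.0094 over genes. Without a filter, limma called 0 lower and 0 higher among 30754 genes, with 2710 and 1136 at an unadjusted p under 0.05. The share of lower genes among those called was 83.0%, and 72.6%, 62.3% and 68.7% under the 3 scalings, but 42.9% (15 lower, 20 higher) without C/EBPβ enh-/- library 1 and 51.3% (20 lower, 19 higher) without C/EBPβ enh-/- library 2. The fatty acid median became −0.050 with totals equalised without ENSG00000259001 and −0.060 with centring. Under these 2 settings the sign changed for PMVK (0.0033 and 0.017), CYP51A1 (0.14 and 0.13), HSD17B7 (0.16 and 0.17), NPC1 (0.025 and 0.023), ACACB (0.032 and 0.075) and ELOVL6 (0.11 and 0.13), since both shift all genes upward. With totals equalised in that way, values moved by over 1.5 times, besides those in the report, to −0.31 for FADS1, −0.33 for ACSL3, −0.062 for ACSL4, 0.44 for ACAT2, 0.47 for MVK, 0.55 for IDI1, 0.34 for SC5D, 0.31 for DHCR7, 0.48 for STARD4 and 0.42 for ELOVL5. Leaving out each library gave 9 to 22 genes lower, 3 to 20 higher, 3 to 6 sterol synthesis members below WT (beside 47.2% to 54.5% of all genes) and a fatty acid median of −0.56 to −0.20. A genotype with 1 library left is assumed to vary like the other. The log2 fold change then ranged from −0.22 to 1.31 for INSIG1, −0.051 to 0.57 for ACAT2, −0.013 to 0.62 for MVK, −0.19 to 0.99 for MVD, −0.12 to 0.85 for IDI1, −0.27 to 0.17 for CYP51A1, −0.45 to 0.44 for HSD17B7, −0.14 to 0.45 for SC5D, −0.46 to 0.73 for DHCR7, −0.29 to 0.90 for STARD4, −0.41 to 0.11 for NPC1, −0.55 to 0.47 for ELOVL6 and −0.61 to 0.12 for ACSL4. Without a change of sign, it ranged from −1.32 to −0.62 for FASN, −1.01 to −0.35 for LSS, −0.92 to −0.40 for FDPS, −0.81 to −0.21 for ACSL3, −0.70 to −0.29 for FADS1, 0.27 to 0.74 for EBP, −0.27 to −0.045 for PMVK, 0.096 to 0.37 for ELOVL5, 0.12 to 0.68 for ACSS2 and −0.18 to −0.023 for ACACB. The cause of these changes was not tested.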
